A study of Arabidopsis thaliana with 18 samples.

Results

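This account covers 77 probe sets whose signal was briefly lowered in Arabidopsis thaliana seedlings 2 h after a step from 12 °C to 27 °C and was back up after 24 h. They were chosen on the 6 arrays of the wild type Col-0 alone. The 2 h mean had to lie at least 1 log2 unit below the 12 °C mean, and the 24 h mean at least 1 unit above the 2 h mean. Both 2 h arrays had to lie below every 12 °C and every 24 h array, and the 12 °C mean had to reach 7. These limits kept 77 of 22746 probe sets that are not array controls, or 0.339%, and all 77 were among the 15922 tested for change. Of the 77, 30 are paired with 1 gene and can be named, 44 are not listed in the annotation used here, and 3 are paired with several genes.

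The series asks about the part of H2A.Z nucleosomes in the response to temperature, and compares arp6-10 mutants with Col-0. ARP6 belongs to SWR1, a chromatin remodelling complex that exchanges H2A for the variant H2A.Z. Each genotype was collected as whole seedlings before the shift, at 12 °C, and again once 2 h and 24 h had passed at 27 °C, with 4 arrays in each arp6-10 group and 2 in each Col-0 group, 18 in all. All groups share the same earlier growth on sugar-free plates: seeds at 4 °C in the dark for 48 h, then 20 °C in light, then 3 days at 12 °C in continuous light from day 5, and all carry a labelled age of 8 days. No group stayed at 12 °C for the added hours, so warmth and elapsed time cannot be told apart. The labels do not say whether the arrays of a group are separate cultures, and p-values therefore measure the spread between these arrays, which may be technical. No probe set here is paired with ARP6 alone, and its level is not analysed. In whole seedlings, fewer cells of a type and less RNA per cell cannot be told apart.

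Several of the named genes act in pathways that plants adjust with temperature and growth. Flavonols are phenolic compounds that are stored in the vacuole after sugars such as rhamnose have been attached to them, and their synthesis is raised in cool, bright conditions. Glucosinolates are sulfur-rich defence compounds of the cabbage order, some made from methionine after its side chain has been lengthened. Endoglucanases, expansins and pectin-modifying enzymes act on the cell wall as cells enlarge, and subtilases and aspartyl proteases are large plant families of which many members are secreted.

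Levels are log2 of the deposited intensity plus 16, after quantile normalization over the 18 arrays. A level compares 1 probe set between arrays and not different genes with each other. On an axis drawn from probe sets outside the 77, the array labelled arp6-10 12 °C replicate 3 lay at 0.95 and the array labelled arp6-10 24 h replicate 2 at -0.04, where 0 is the mean of the other arp6-10 12 °C arrays and 1 that of the other arp6-10 24 h arrays. The remaining 12 °C and 24 h arrays of arp6-10 lay at 0.08 to 0.15 and 0.89 to 0.93. Each of these 2 arrays thus lies at the place of the other's group, and whether their labels were exchanged was not tested. Labels are kept as given, and the main counts that rest on these 2 arrays are also given over the 16 others. All values over the 16 arrays depend on setting these 2 aside, those of the marker genes below among them. Correlations between arrays ran from 0.859 to 0.988, and no pair was identical. The 3' to 5' signal ratio of the GAPDH control, a measure of RNA integrity, ran from 1.47 to 6.48 in arp6-10 and from 1.99 to 6.78 in Col-0, and the hybridization control from 2813 to 4579 in arp6-10 and from 4215 to 6573 in Col-0. The leaf markers LHCB4.2 and PRK stood at 11.44 to 13.76 and 11.89 to 13.45, and the root markers PYK10 and NAI2 at 12.31 to 13.70 and 8.96 to 10.75. In arp6-10 at 2 h against 12 °C the log2 changes were 0.93 for LHCB4.2 and -0.04 for PRK, and -0.20, 0.13 and 0.18 for PYK10, NAI2 and the root hair marker EXPA7. None of these 5, of which 2 are leaf and 3 root markers, passed the limma test over 18 arrays, with 1 leaf marker at an unadjusted p under 0.05. Over the 16 arrays LHCB4.2 rose by 1.41 at 2 h (limma adjusted p = 1.07e-07), while the other 4 did not pass at that step. Between 2 h and 24 h LHCB4.2 and PRK rose over the 16 arrays, by 0.52 and 0.58, and at 24 h against 12 °C LHCB4.2, PRK and NAI2 were higher by 1.93, 0.74 and 0.69. The part of such tissues in the results was not tested.

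In Col-0 the 77 probe sets dipped at 2 h and most came back close to their 12 °C level. These Col-0 values chose the members and are a description, with no test. The 2 h mean lay below the 12 °C mean by a median log2 difference of -1.49, within a range of -3.69 to -1.0036, and 17 probe sets had a difference of 2 or more. The 24 h mean lay above the 2 h mean by a median of 1.41, within a range of 1.01 to 4.63, and 12 had a difference of 2 or more. The 24 h mean differed from the 12 °C mean by a median of -0.04, with 56 of 77 within 0.5 log2 units and 66 within 1. The return was not exact for all, since both 24 h arrays lay above both 12 °C arrays for 15 probe sets and below both for 19. The most negative and most positive differences between 24 h and 12 °C were -2.52 for the probe set 254283_s_at and 3.61 for the probe set 248844_s_at, which is paired with several genes. Before the shift, Col-0 levels of the 77 ran from 7.01 to 12.03 with a median of 8.50, against a median of 7.40 over all tested probe sets.

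The mean over the 77 probe sets gives the pattern on each array. In arp6-10 it stood at 8.73, 8.58, 8.29 and 8.80 at 12 °C, at 7.70, 7.63, 7.81 and 7.95 at 2 h, and at 8.66, 8.97, 8.23 and 8.36 at 24 h. In Col-0 it stood at 8.95 and 8.73 at 12 °C, at 7.21 and 7.23 at 2 h, and at 8.81 and 8.73 at 24 h. All 4 arp6-10 arrays at 2 h lay below all arp6-10 arrays at 12 °C and 24 h, and above both Col-0 arrays at 2 h. Group means were 8.60 ± 0.22, 7.77 ± 0.14 and 8.55 ± 0.33 (SD, n = 4) in arp6-10 over time, against 8.84 ± 0.16, 7.22 ± 0.02 and 8.77 ± 0.06 (SD, n = 2) in Col-0. The lowest arp6-10 array at 12 °C and the highest at 24 h were the 2 that stand apart. Without them the arp6-10 means were 8.70 ± 0.11 at 12 °C and 8.42 ± 0.22 at 24 h (SD, n = 3).

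**Figure D1:**
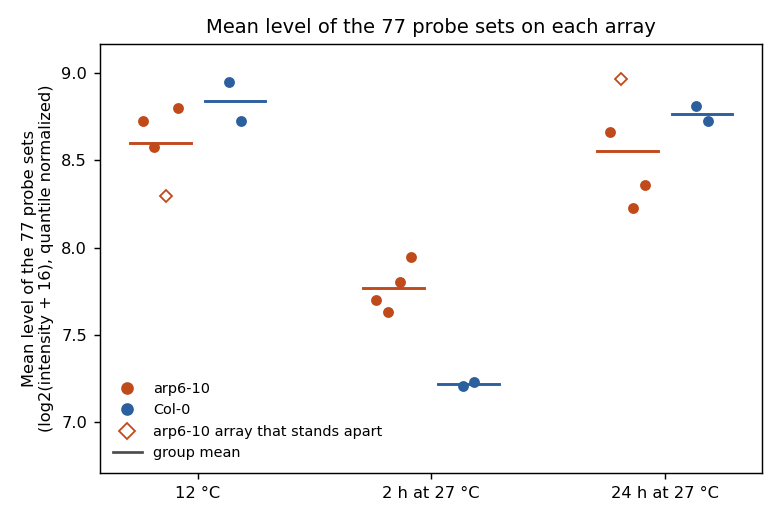
Mean level of the 77 probe sets, in log2(intensity + 16), on each of the 18 arrays at 12 °C and after 2 h and 24 h at 27 °C. Points are arrays of arp6-10 and Col-0, open diamonds are the 2 arp6-10 arrays that stand apart, and lines are group means. The arp6-10 arrays at 2 h lie between 7.63 and 7.95 and the Col-0 arrays at 2 h at 7.21 and 7.23, and both sets lie below every array at 12 °C and 24 h.

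The arp6-10 arrays were not used to choose the 77, so the same measure could be tested there. Over 18 arrays, 29 of the 77 fell in arp6-10 at 2 h against 12 °C (37.7%), where 1.84% of all tested probe sets fell (limma, Benjamini-Hochberg adjusted p under 0.05 over all tested probe sets). None of the 77 rose (1.86% of all tested did), and none reached an unadjusted p under 0.05 in that direction, while 53 did in the other direction. The median log2 change was -0.72, from -2.63 to 0.30, and 72 of 77 were below 0, against a median of 0.00 over all tested probe sets. Every 2 h array lay below every 12 °C array for 36 of 77, or 46.8%, and for 5.93% of all tested. Over the 16 arrays, 47 of 77 fell (61.0%, where 8.63% of all tested fell), and every 2 h array lay below every 12 °C array for 50 (where 14.0% of all tested did so).

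The later step was measured in arp6-10 in the same way. Between 2 h and 24 h, 22 of 77 rose over 18 arrays (28.6%, where 0.904% of all tested probe sets rose), and 0 fell by limma, with 0 at an unadjusted p under 0.05. Over the 16 arrays 41 rose (53.2%, where 7.06% of all tested rose) and 2 fell (where 7.83% of all tested fell). The median log2 change was 0.71 over 18 arrays, from -0.47 to 2.29, with 72 of 77 above 0, and 0.60 over 16 arrays. Every 2 h array lay below every 24 h array for 36 of 77 over 18 arrays (where 4.39% of all tested did so). Over 16 arrays this held for 40 (where 13.2% of all tested did so). Both tests were passed by 15 of the 77 over 18 arrays (where 0.559% of all tested passed both) and by 31 over 16 arrays (where 1.21% did). Neither was passed by 41 of the 77 over 18 arrays (where 97.8% of all tested passed neither) and by 20 over 16 arrays (where 85.5% did). A dip of the size asked of Col-0, with the 2 h mean at least 1 below both other means, was seen in arp6-10 for 14 of 77 (and for 0.214% of all tested probe sets), and for 10 over 16 arrays (0.132% of all tested).

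Whether arp6-10 came back to its own 12 °C level depended on the 2 arrays that stand apart. Over 18 arrays limma called 0 of the 77 between 24 h and 12 °C, with 4 lower and 8 higher at an unadjusted p under 0.05, and it called 0 of all tested probe sets. Over 16 arrays 19 of the 77 were lower at 24 h than at 12 °C (where 14.9% of all tested were lower) and 8 were higher (where 14.0% were higher). The numbers of calls moved with the arrays entered. Leaving out arp6-10 2 h replicate 2 left 10 calls in place of 29 at 2 h, where the share of all tested probe sets that fell was 0.716% in place of 1.84%. Leaving out 12 °C replicate 1, 2 or 4 left 16, 13 and 14, where 1.06%, 0.553% and 0.766% of all tested fell. Of the 11 falls of named genes described below, those of AT3G61820 and AT1G73600 passed with any 1 array left out, and the other 9 did not pass with some 1 array left out. Of the 7 rises of named genes, those of AT1G67750, GTR2 and UGT72E1 ended in the same way. With the arp6-10 arrays normalized and fitted without Col-0, 16 fell at 2 h (where 1.07% of all tested fell) and 14 rose between 2 h and 24 h (where 0.484% rose).

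Another set chosen from Col-0, the 203 probe sets lowered at both 2 h and 24 h, was measured in arp6-10 for comparison. The 2 sets overlap. In Col-0, 7 of the 77 still lay at least 1 log2 unit below their 12 °C mean at 24 h. These 7, with AT1G06000 and CHIL among them, are in both sets and are counted in both. Of its 202 tested probe sets 16 fell at 2 h over 18 arrays (7.92%) and 129 over 16 arrays (63.9%), beside 29 and 47 of the 77. Between 2 h and 24 h 11 of the 202 rose (5.45%) and 55 fell over 16 arrays, beside 41 and 2 of the 77. Both sets were chosen on the same Col-0 arrays, and the difference between them was not tested.

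Across the 77, larger drops in Col-0 went with larger drops in arp6-10, with the points sharing their arrays and normalization. Pearson's r between the 2 h changes of arp6-10 and Col-0 was 0.57 and Spearman's rho 0.47 (77 probe sets, 18 arrays), and 0.69 and 0.58 over 16 arrays. For the changes between 2 h and 24 h they were 0.47 and 0.31. Probe sets are not independent replicates, and these values only describe the scatter.

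**Figure D2:**
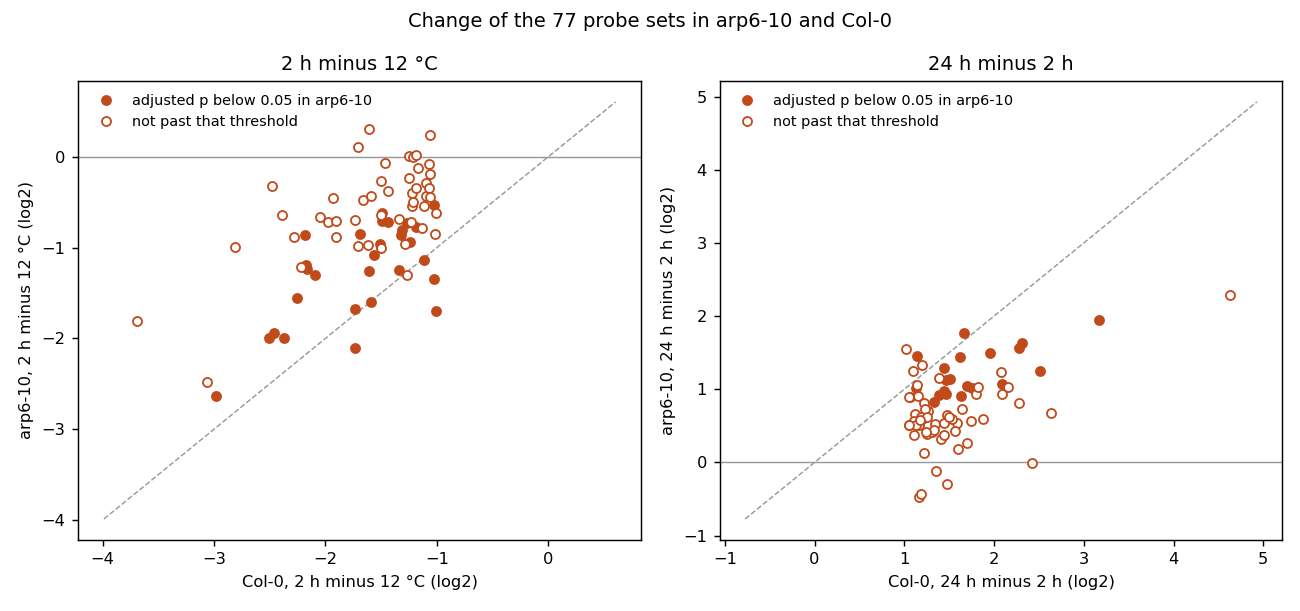
Log2 change of the 77 probe sets in arp6-10 (vertical) against Col-0 (horizontal), for 2 h minus 12 °C on the left and 24 h minus 2 h on the right. Each point is a probe set, filled where the arp6-10 change passed an adjusted p of 0.05 over 18 arrays (29 on the left, 22 on the right), and the dashed line marks equal change. In arp6-10 the drop was smaller for 71 of the 77 and the rise smaller for 72, and the Col-0 values had to pass a limit of 1.

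Among the named genes, AT1G06000 and CHIL of flavonoid synthesis had the largest drops at 2 h in arp6-10 and in Col-0. Their return in Col-0 was only partial, with net differences between 24 h and 12 °C of -1.49 and -1.22. For UGT78D1, also of flavonoid synthesis, this difference was -0.56. All 3 flavonoid genes fell in arp6-10 at 2 h over 18 and 16 arrays. AT1G06000 encodes UGT89C1, which attaches rhamnose to flavonols at the seventh position of the ring. It stood at 11.26, 10.87, 9.22 and 11.77 in arp6-10 at 12 °C, at 8.66, 8.31, 9.08 and 9.09 at 2 h, and at 9.36, 12.07, 9.92 and 10.01 at 24 h. In Col-0 it stood at 11.11 and 10.81 at 12 °C, at 8.52 and 8.39 at 2 h, and at 9.38 and 9.56 at 24 h. No arp6-10 array at 2 h reached an array at 12 °C or 24 h, although the lowest 12 °C array, replicate 3, lay only just above them. The log2 change at 2 h was -1.99 ± 0.50 (SE; limma adjusted p = 0.036), and -2.51 ± 0.21 over 16 arrays.

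UGT78D1, which attaches rhamnose at the other main position of flavonols, had a smaller drop. It stood at 10.51, 9.77, 9.15 and 10.27 in arp6-10 at 12 °C, at 8.84, 8.75, 8.53 and 8.57 at 2 h, and at 9.22, 10.66, 9.17 and 9.20 at 24 h. Col-0 levels were 9.34 and 9.63 at 12 °C, 7.93 and 7.82 at 2 h, and 8.91 and 8.93 at 24 h. All arp6-10 arrays at 2 h lay below those at 12 °C and 24 h, with a log2 change of -1.26 ± 0.30 (SE; limma adjusted p = 0.0286) at 2 h.

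CHIL encodes a chalcone isomerase-like protein that promotes flux into flavonoids. It stood at 10.63, 10.80, 8.55 and 10.74 in arp6-10 at 12 °C, at 8.30, 8.05, 8.21 and 8.16 at 2 h, and at 8.50, 11.08, 8.20 and 8.59 at 24 h. Col-0 levels were 9.82 and 9.99 at 12 °C, 7.53 and 7.54 at 2 h, and 8.76 and 8.61 at 24 h. In arp6-10 it fell by 1.999 ± 0.52 log2 units at 2 h (SE; limma adjusted p = 0.0414). The change between 2 h and 24 h was 0.91 ± 0.52 over 18 arrays and 0.25 ± 0.13 over 16, neither past the test. None of the 3 passed the limma test of a rise between 2 h and 24 h over 18 arrays, where 3 of the 7 listed flavonoid genes had an unadjusted p under 0.05 in that direction. AT1G06000 and UGT78D1 rose over 16 arrays, by 0.98 ± 0.21 and 0.53 ± 0.16 (SE). Flavonoid genes were among those by which the 2 arrays were first set apart, so the 16-array values of these 3, and of the other flavonoid genes below, depend on that choice.

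Of 26 listed flavonoid genes 7 could be tested, the 3 above and DFR, UF3GT, UGT75C1 and UGT78D2, enzymes of anthocyanin and flavonol formation. The rest have no tested probe set paired with 1 gene, and unnamed members may be among them. In arp6-10 at 2 h 4 of the 7 fell over 18 arrays, the fourth being UGT78D2 with a log2 change of -1.67 (adjusted p = 0.0343), and all 7 fell over 16. DFR, UF3GT and UGT75C1 had log2 changes of -2.21, -2.05 and -1.89 over 18 arrays that did not pass (limma adjusted p = 0.245, 0.22 and 0.252). Over the 16 arrays DFR, UF3GT and UGT75C1 fell further between 2 h and 24 h, with log2 changes of -1.16, -0.72 and -1.10. DFR lay just outside the choice of members, with a Col-0 difference of 0.98 between 24 h and 2 h.

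**Figure D3:**
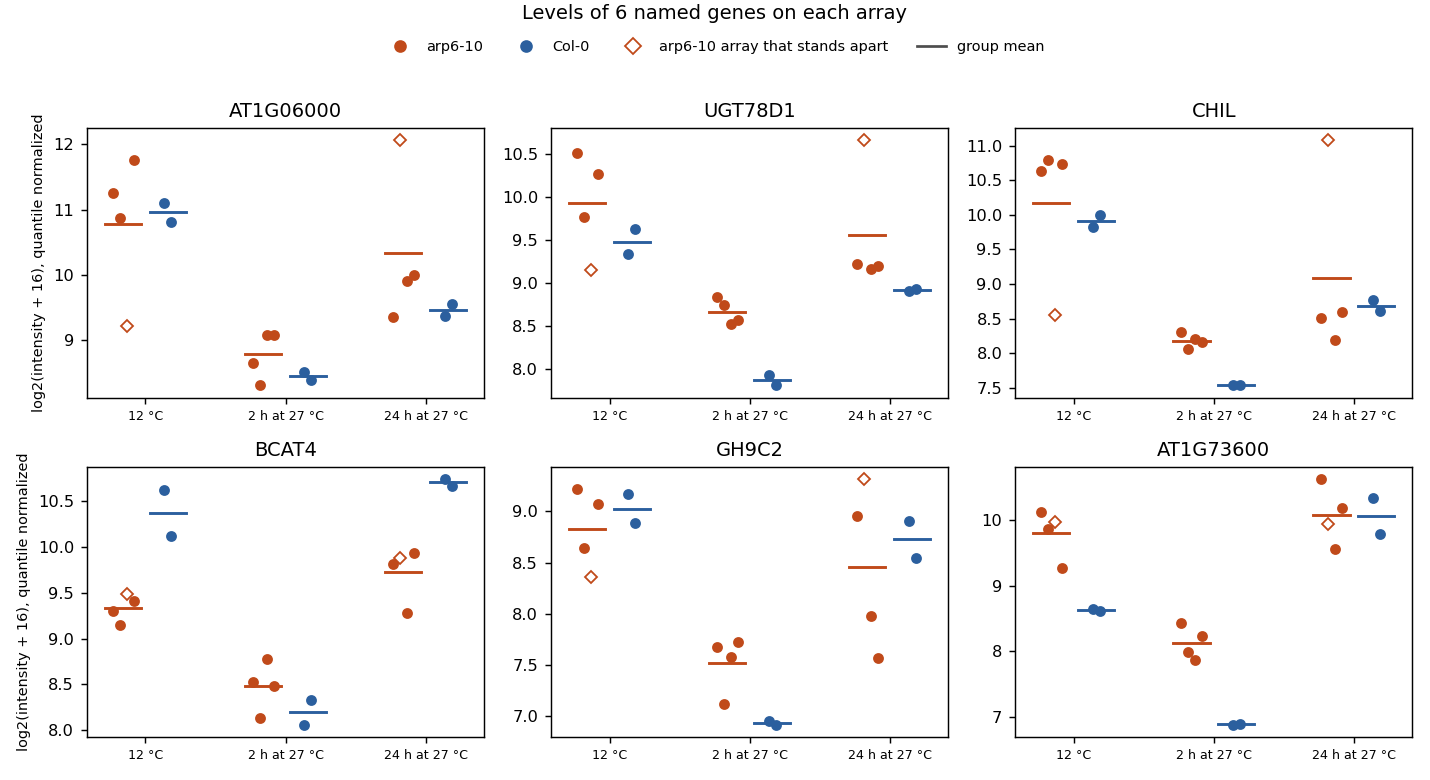
Levels of AT1G06000, UGT78D1, CHIL, BCAT4, GH9C2 and AT1G73600, in log2(intensity + 16), on each of the 18 arrays at 12 °C and after 2 h and 24 h at 27 °C. Points are arrays of arp6-10 and Col-0, open diamonds are the 2 arp6-10 arrays that stand apart, lines are group means, and each panel has its own vertical range. For CHIL the open diamonds lie at 8.55 at 12 °C and 11.08 at 24 h, far from the other arp6-10 arrays, and for BCAT4, at 9.48 and 9.89, they lie close to them.

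The 2 genes of glucosinolate synthesis and transport returned to about their 12 °C level in Col-0, with net differences of 0.33 for BCAT4 and -0.08 for GTR2, and both rose in arp6-10 between 2 h and 24 h. BCAT4, the aminotransferase that starts methionine chain elongation, stood at 9.31, 9.15, 9.48 and 9.41 in arp6-10 at 12 °C, at 8.53, 8.14, 8.78 and 8.49 at 2 h, and at 9.81, 9.89, 9.28 and 9.94 at 24 h. Col-0 levels were 10.63 and 10.13 at 12 °C, 8.06 and 8.33 at 2 h, and 10.74 and 10.67 at 24 h. No arp6-10 array at 2 h overlapped another time, and the 2 arrays that stand apart lay with their groups. It fell by 0.86 ± 0.18 at 2 h (SE; limma adjusted p = 0.0135) and rose by 1.25 ± 0.18 between 2 h and 24 h (limma adjusted p = 0.000973). GTR2 encodes a transporter that loads glucosinolates into the phloem and seeds. It stood at 7.64, 6.75, 7.54 and 7.99 in arp6-10 at 12 °C, at 6.76, 6.93, 6.84 and 7.38 at 2 h, and at 7.98, 8.44, 7.74 and 7.82 at 24 h. It rose by 1.02 ± 0.23 between 2 h and 24 h (SE; limma adjusted p = 0.0293), while its change at 2 h, -0.50 ± 0.23, did not pass. Of the 31 listed glucosinolate genes 4 could be tested. Among these 4, BCAT4 alone fell at 2 h and alone rose after it over 18 arrays. The other listed genes have no tested probe set paired with 1 gene, and unnamed members may be among them. UGT74B1, UGT74C1 and GSTU20 had log2 changes of 0.39, 0.03 and 0.20 at 2 h, none past the test over 18 arrays. Over 16 arrays UGT74B1 rose by 0.61 at 2 h (limma adjusted p = 0.0198), and GSTU20 fell by 1.04 between 2 h and 24 h (limma adjusted p = 0.000183).

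Of 5 cell wall genes, 2 fell in arp6-10 at 2 h over 18 arrays and 3 over 16. GH9C2, an endoglucanase of glycosyl hydrolase family 9 with a carbohydrate-binding module, stood at 9.22, 8.64, 8.36 and 9.07 in arp6-10 at 12 °C, at 7.67, 7.12, 7.58 and 7.73 at 2 h, and at 8.96, 9.31, 7.98 and 7.57 at 24 h. Col-0 levels were 9.17 and 8.88 at 12 °C, 6.96 and 6.92 at 2 h, and 8.91 and 8.55 at 24 h. The 2 h arrays of arp6-10 lay below those at 12 °C but overlapped those at 24 h. It fell by 1.30 ± 0.30 at 2 h (SE; limma adjusted p = 0.0242), and its change of 0.93 ± 0.30 after that did not pass. EXPB3, a beta-expansin, fell by 0.85 ± 0.21 at 2 h (SE; limma adjusted p = 0.0364). AT1G67750, of the pectate lyase family, had a change of -0.69 ± 0.21 at 2 h that did not pass (limma adjusted p = 0.0725). It rose by 1.05 ± 0.21 between 2 h and 24 h (limma adjusted p = 0.013). Its 2 h levels of 5.86 to 6.22 lie near the dim end of the scale, which cannot go under 4. GH9B8, another endoglucanase, had a change of -0.77 ± 0.25 (SE) over 16 arrays, where it passed. The pectin methylesterase gene AT5G04960 stood apart from these. It stood at 6.90, 6.40, 6.61 and 6.50 in arp6-10 at 12 °C and at 5.93, 6.67, 6.42 and 7.38 at 2 h, an overlap with a log2 change of -0.00 ± 0.29, against a Col-0 difference of -1.21. A separate list of 24 cell wall genes had 5 tested and no named member among the 77. None of the 5 fell at 2 h by limma over 18 arrays, with 0 at an unadjusted p under 0.05 in that direction. Over 16 arrays XTH20 fell by 1.77 and EXPA8 rose by 1.97 at 2 h, and the other 3 did not pass.

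Of 5 protease genes, 3 fell in arp6-10 at 2 h over 18 and over 16 arrays. AT3G61820, of the aspartyl protease family, stood at 9.05, 9.12, 8.81 and 9.42 in arp6-10 at 12 °C, at 8.06, 7.54, 8.11 and 7.77 at 2 h, and at 9.03, 9.33, 8.90 and 8.73 at 24 h. Col-0 levels were 10.13 and 9.64 at 12 °C, 7.73 and 7.71 at 2 h, and 9.10 and 9.28 at 24 h. The arp6-10 arrays at 2 h overlapped no other time, and at 12 °C all arp6-10 arrays lay below both Col-0 arrays. It fell by 1.23 ± 0.18 at 2 h (SE; limma adjusted p = 0.000844) and rose by 1.13 ± 0.18 after it (limma adjusted p = 0.0022). AT3G54400, of the same family, fell by 0.81 ± 0.17 (SE; limma adjusted p = 0.0137), and the subtilase AT5G45650 fell by 0.62 ± 0.16 (limma adjusted p = 0.0358). Neither passed the test of the rise over 18 arrays, at 0.54 ± 0.17 and 0.62 ± 0.16 (SE), and both passed it over 16. The aspartyl protease AT5G07030 and the subtilase AT4G30020 had changes of -0.43 ± 0.23 and -0.54 ± 0.24 at 2 h that did not pass. For AT4G30020 the 2 Col-0 arrays at 2 h lay far apart, at 7.12 and 5.70.

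Among 7 further enzyme and metabolism genes, 2 fell at 2 h and 3 rose after it in arp6-10 over 18 arrays. AT1G73600 encodes a phosphoethanolamine N-methyltransferase, which makes precursors of phosphatidylcholine. It stood at 10.12, 9.87, 9.97 and 9.26 in arp6-10 at 12 °C, at 8.43, 7.99, 7.87 and 8.23 at 2 h, and at 10.62, 9.95, 9.56 and 10.18 at 24 h. Col-0 levels were 8.65 and 8.61 at 12 °C, 6.89 and 6.90 at 2 h, and 10.34 and 9.79 at 24 h. In arp6-10 the 2 h arrays overlapped no other time, and arp6-10 stood above Col-0 at 12 °C and 2 h but not at 24 h. It fell by 1.68 ± 0.22 at 2 h (SE; limma adjusted p = 0.000383) and rose by 1.95 ± 0.22 after it (limma adjusted p = 0.00011), the largest rise among the named genes. AT4G29690, of the nucleotide pyrophosphatase and phosphodiesterase type, fell by 0.72 ± 0.16 (SE; limma adjusted p = 0.0203) and rose by 0.92 ± 0.16 (limma adjusted p = 0.00507). Its arp6-10 levels at 2 h, 5.92 to 6.29, lie near the dim end of the scale. UGT72E1, which glucosylates lignin precursors, rose by 0.89 ± 0.19 between 2 h and 24 h (SE; limma adjusted p = 0.0227), after a change of -0.27 ± 0.19 at 2 h that did not pass.

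The rest of this group passed no test over 18 arrays. BAT1, an acyltransferase that inactivates brassinosteroids, AT1G06830, a CC-type glutaredoxin, and AT4G11190, of the dirigent family, had changes of 0.73 ± 0.21, 1.03 ± 0.29 and 0.82 ± 0.43 (SE) between 2 h and 24 h. None of these passed over 18 arrays and all 3 passed over 16. That of AT1G06830 also passed over 18 arrays with the values as deposited, and all 3 passed over 18 arrays with array weights. AT5G45700 had a change of -0.38 ± 0.19 at 2 h and passed neither test over 18 or 16 arrays. AT4G11190 ranged widely at 12 °C in arp6-10, at 6.88, 7.18, 8.40 and 6.34, beside 8.11 and 7.96 in Col-0.

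The other 8 named genes passed neither test in arp6-10 over 18 arrays. AT5G59240, which encodes ribosomal protein S8e, and AT1G08580 had changes of -0.98 ± 0.28 and -1.004 ± 0.32 (SE) at 2 h, and both fell over 16 arrays, as did AT5G49280 and AT5G66985. AT3G25290, of an auxin-responsive membrane protein family, had changes of -0.34 ± 0.18 at 2 h and 0.62 ± 0.18 after it, and the second passed over 16 arrays. AT5G40830 had changes of -0.43 ± 0.23 and 0.51 ± 0.23.

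DRT100 and AT2G16660 differed from the group in having almost no change at 2 h in arp6-10. DRT100 encodes a leucine-rich repeat protein. It stood at 8.36, 7.89, 8.71 and 8.48 in arp6-10 at 12 °C, at 7.91, 8.01, 8.69 and 8.89 at 2 h, and at 9.10, 8.63, 8.78 and 8.66 at 24 h. Col-0 levels were 9.57 and 9.54 at 12 °C, 8.37 and 8.36 at 2 h, and 9.59 and 9.75 at 24 h. The arp6-10 arrays at 12 °C and 2 h cover the same range, and they lie near the Col-0 level at 2 h, with a log2 change of 0.02 ± 0.21 (SE). AT2G16660, a transporter-like protein of the major facilitator family, had a change of -0.08 ± 0.35 at 2 h, with arp6-10 at 7.52, 7.24, 9.03 and 8.25 at 12 °C and 7.50, 7.48, 8.14 and 8.60 at 2 h.

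**Figure D4:**
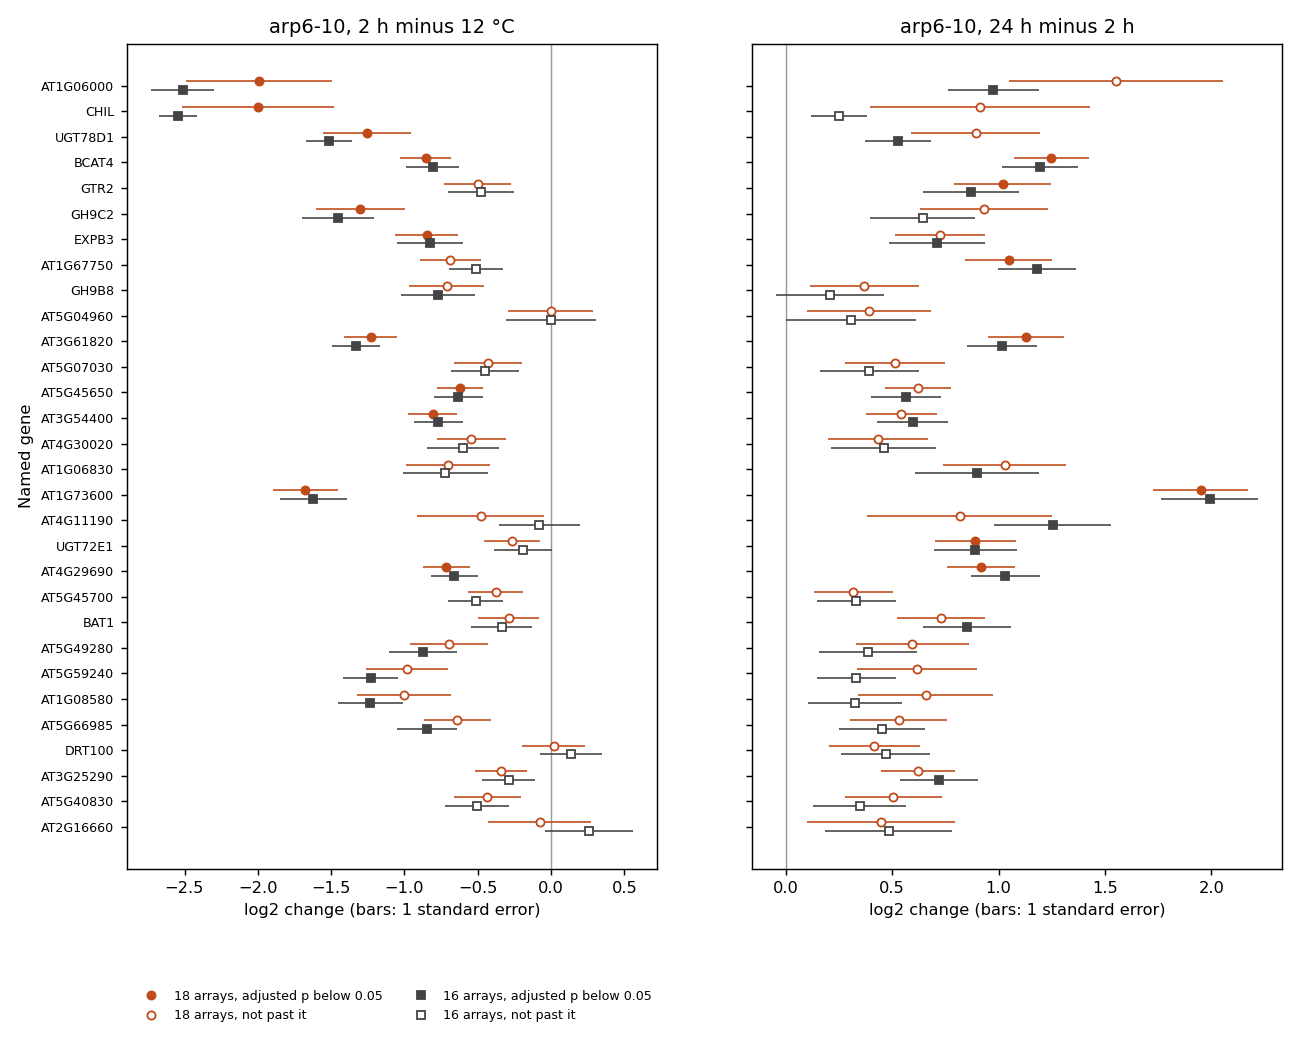
Log2 change of the 30 named genes in arp6-10, at 2 h minus 12 °C on the left and 24 h minus 2 h on the right, with bars of 1 standard error. Circles are the fit over 18 arrays and squares that over 16, filled where the limma adjusted p was below 0.05. Of the 30, 11 fell and 7 rose over 18 arrays, and 16 fell and 16 rose over 16 arrays, while DRT100, AT5G04960 and AT2G16660 lie near 0 on the left.

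The 47 members without a name behaved much like the named ones in counts. In arp6-10 at 2 h 18 of the 47 fell over 18 arrays and 31 over 16, beside 11 and 16 of the 30 named genes. Of all tested probe sets 1.84% and 8.63% fell. Between 2 h and 24 h 15 of the 47 rose over 18 arrays and 25 over 16, beside 7 and 16 of the 30. Of all tested probe sets 0.904% and 7.06% rose. The probe set 261191_at stood at 10.23, 10.20, 9.78 and 10.65 in arp6-10 at 12 °C, at 8.25, 8.09, 8.30 and 7.79 at 2 h, and at 9.07, 10.50, 9.37 and 9.45 at 24 h. It fell by 2.11 ± 0.25 at 2 h (SE; limma adjusted p = 0.000141) and rose by 1.49 ± 0.25 after it (limma adjusted p = 0.00348), and its 2 h arrays overlapped no other time.

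The 2 probe sets at the ends of the Col-0 range were hard to read in arp6-10. The probe set 254283_s_at stood at 12.07, 12.25, 7.53 and 12.27 in arp6-10 at 12 °C, at 9.25, 9.10, 9.51 and 9.01 at 2 h, and at 7.78, 12.17, 7.40 and 7.64 at 24 h. The 7.53 and the 12.17 are the arrays that stand apart, and its change of -1.81 ± 0.97 (SE) at 2 h did not pass over 18 arrays. Over 16 arrays it fell by 2.98 ± 0.18 at 2 h and fell by 1.61 ± 0.18 more between 2 h and 24 h, where in Col-0 the second difference was 1.16. The probe set 248844_s_at had its 24 h levels of 9.19, 8.48 and 8.20 in arp6-10 beside 5.95 on the array that stands apart, and 10.78 and 10.62 in Col-0. Its change of 2.29 ± 0.73 (SE) between 2 h and 24 h did not pass over 18 arrays and that of 2.96 ± 0.29 did over 16.

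**Figure D5:**
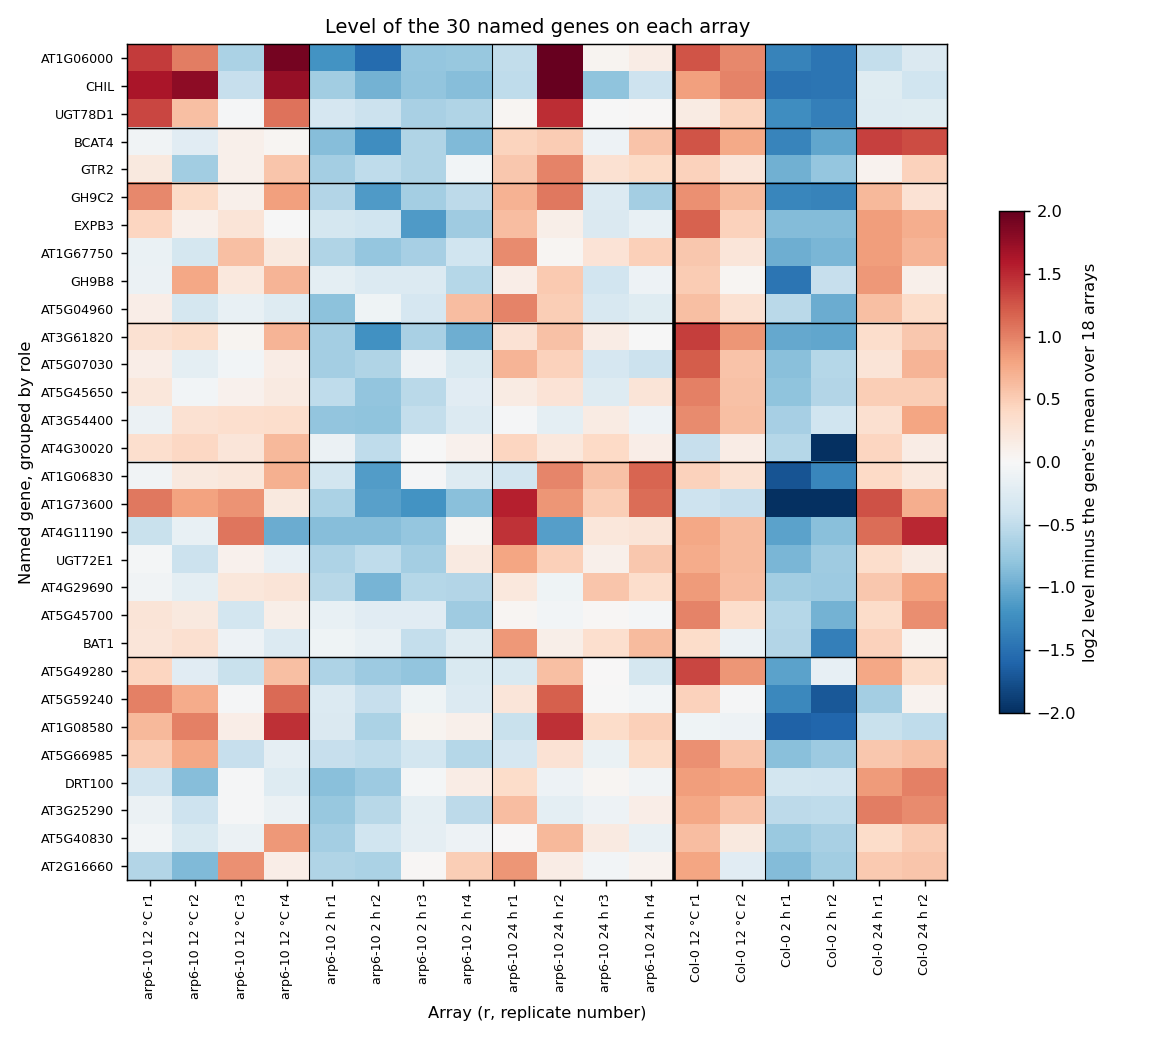
Level of each of the 30 named genes on each of the 18 arrays, as the log2 level minus the gene's mean over all arrays, with blue for lower and red for higher and the colour range ending at 2 units either way. Columns are arrays of arp6-10 on the left and Col-0 on the right in order of time, and rows are grouped by role from flavonoid genes at the top to other genes at the bottom. The Col-0 columns at 2 h are below the gene's mean in all rows, and the top 3 rows differ on arp6-10 12 °C replicate 3 and arp6-10 24 h replicate 2.

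Set against Col-0, arp6-10 was higher at 2 h for 70 of the 77, with a median log2 difference of 0.52. Over all tested probe sets the median was 0.02, and 48.6% were below 0. Col-0 values were low at 2 h and high at 12 °C and 24 h by choice, so none of the differences between the genotypes has a test, and how far the choice sets them was not tested. At 12 °C the median difference, arp6-10 minus Col-0, was -0.23, with 51 of 77 below 0 (and 52.8% of all tested). At 24 h it was -0.19, with 45 of 77 below 0 (and 50.4% of all tested). Over 16 arrays the median at 12 °C was -0.13, with 45 of 77 below 0 (and 52.2% of all tested). At 24 h it was then -0.30, with 57 of 77 below 0 (and 50.9% of all tested). The largest named differences at 12 °C were 1.18 for AT1G73600 and 0.91 for AT1G08580 above, and -1.20 for DRT100 and -1.04 for BCAT4 below. Over 16 arrays they were 1.12, 1.13, -1.31 and -1.09. Other genes of lower level in arp6-10 at 12 °C were AT5G49280, AT5G07030, AT3G25290, AT4G11190 and UGT72E1, at -1.02 to -0.83.

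Of 16 pathway lists with 301 genes in all, 55 genes could be tested, and 4 of these were members, 3 from the flavonoid list and 1 from the glucosinolate list. All 4 tested heat shock genes rose in arp6-10 at 2 h and fell after it, the opposite course. Without being members, 3 of 11 tested ribosome biogenesis genes fell at 2 h over 18 arrays and 5 over 16. Over 18 arrays 8 of the 11 had an unadjusted p under 0.05 in that direction. MCM7, of the cell cycle list, was not a member, with a Col-0 difference of -0.50 at 2 h. Over 18 arrays MCM7 fell by 0.80 in arp6-10 at 2 h (limma adjusted p = 0.0244). It rose by 0.76 after that (limma adjusted p = 0.0442).

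Some probe sets lay close to the limits of the choice. Just inside the limit on the first step were 2 unnamed probe sets at -1.0036 and -1.0115, and just outside lay AT4G24780 at -0.9966 and AT5G23830 at -0.9956. On the second step AT1G06000 lay just inside at 1.01, and AT2G18900 and DFR lay just outside at 0.9961 and 0.9846. On the level at 12 °C, AT1G67750 was inside at 7.02 and AT2G40780 outside at 6.95. In all 79 probe sets missed on the first step alone, 165 on the second and 65 on the level.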

How the data were processed

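Each of 18 whole-seedling RNA samples was measured on 1 Affymetrix array from 1 µg of RNA, per the labels' protocols. The deposited values are linear intensity readings of probe sets. GCOS produced them, per the submitters' processing notes. Neither its version nor its summary method is given in the sources used here. Depth does not apply, and the number of arrays limits the precision. Of 22810 probe sets, 64 controls were set aside. Values were taken as log2(value + 16) and quantile normalized over 18 arrays. Those with a mean in the lowest 30 percent were left out. A model of 6 group means (limma 3.58.1, R 4.3.3, lmFit and eBayes with trend, two-sided, 12 residual degrees of freedom, or 10 over 16 arrays) was fitted to 15922 probe sets, with Benjamini-Hochberg adjustment and a threshold of 0.05. This scale understates changes of dim genes. The fit was checked on simulated data.

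Groups follow the labels. Names come from the platform annotation, and RefSeq's gene table (TAIR10.1) brought the symbols up to date: 13513 probe sets have 1 gene, 503 several, and the rest none listed. No sequence, promoter motif or product class was used here. Named genes are members paired with 1 gene that are in a pathway list, or that lead or trail the Col-0 dip, the arp6-10 changes or the genotype difference, with the nearest on either side of each limit. The remaining named members were added after their values were seen, as were the role groups. The members and lists were chosen with earlier results of these data known. Alternatives were other normalization, offsets and filters, left-out arrays, array weights, a replicate block and fits of fewer groups.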

Additional observations from a re-analysis of the deposited data

Results flagged for a closer look

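In 7 of 93 groups of 4 arp6-10 arrays, 1 array lay so far from the other 3 that its gap to them, as a share of the whole range, passed Dixon's critical value for 4 values. Chance alone gives about 1 such group in 20. At 12 °C, CHIL stood at 8.55 on replicate 3, with the others between 10.63 and 10.80, and AT3G54400 stood at 9.95 on replicate 1, with the others between 10.37 and 10.42. At 2 h, AT5G45700 stood at 6.46 on replicate 4, with the others between 6.94 and 7.03, and AT4G29690 stood at 5.92 on replicate 2, with the others between 6.26 and 6.29. AT4G11190 was the high one on replicate 4 at 2 h, at 7.37, with the others between 6.48 and 6.55. At 24 h, CHIL stood at 11.08 and UGT78D1 at 10.66 on replicate 2, with the others between 8.20 and 8.59 and between 9.17 and 9.22. The 3 values on 12 °C replicate 3 and 24 h replicate 2 belong to the arrays that stand apart, and the cause was not tested.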

How the results depend on the processing

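The counts of the 77 called in arp6-10, 29 lower at 2 h, 22 higher between 2 h and 24 h and 0 between 24 h and 12 °C, became 47, 41 and 27 over the 16 arrays, 50, 41 and 23 with array weights, and 50, 41 and 28 over the 16 arrays with the replicate block. With arp6-10 normalized and fitted alone, they were 16 and 14 for the first pair, and 50, 40 and 26 without the 2 arrays. The shares of all tested probe sets were 1.07% and 0.484% for the first pair. Without the 2 arrays that fit called 9.06% of all tested lower at 2 h and 7.09% higher after it. Between 24 h and 12 °C it then called 15.4% lower and 14.2% higher. The 16 arrays with the block and both fits of arp6-10 alone were added after seeing the data. The shares of all tested probe sets called lower at 2 h and higher after it were 7.84% and 7.91% with array weights, and 9.18% and 8.33% over the 16 arrays with the block. Between 24 h and 12 °C 12.9% were lower and 12.0% higher with weights, and 14.8% and 14.3% over the 16 arrays with the block. Leaving out 1 array at a time gave 10 to 41 lower at 2 h, 14 to 28 higher after it and 0 to 10 between 24 h and 12 °C. Of all tested probe sets 0.553% to 4.56% were then lower at 2 h and 0.383% to 3.10% higher after it. Between 24 h and 12 °C 0 to 4.79% were lower and 0 to 4.74% higher. The lowest second count, 14, came without arp6-10 2 h replicate 2, and 2 h replicate 1 and 3 gave 16 and 15. The shares of all tested that rose were 0.383%, 0.452% and 0.421% in turn. The first count was 16 without 2 h replicate 3 or 4 (where 0.747% and 0.622% of all tested fell), and 20 without 2 h replicate 1 (1.14%). Leaving out 12 °C replicate 3 gave 41 on the first step (where 4.56% of all tested fell). Leaving out 24 h replicate 2 gave 28 on the second step (where 3.10% of all tested rose). It gave 10 on the last comparison, where 4.79% of all tested were lower and 4.74% higher. The number of members was 36 with log2(value + 64), all 36 among the 77, and 66 to 99 with 1 Col-0 array left out. It was 100 as deposited, with 70 shared. Of the 11 named falls 9 ended with some 1 array left out, all but AT3G61820 and AT1G73600. Of the 7 named rises 3 ended so, those of AT1G67750, GTR2 and UGT72E1.

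Replicate numbers did not pair the arp6-10 arrays: of 12 same-numbered pairs, correlations of deviations ran from -0.40 to 0.56 and 4 were over 0.1. With the replicate block and no array set aside the counts were 32, 25 and 0. Of all tested probe sets 1.92% were then lower at 2 h, 1.05% were higher after it and 0 were called in the last comparison. Values near 0 at 2 h changed sign. DRT100 was -0.0063 as deposited and AT5G04960 0.015 with log2(value + 64). AT2G16660 was 0.26 over 16 arrays, 0.089 with array weights and 0.26 with arp6-10 fitted alone over 16 arrays. Over 16 arrays with the replicate block AT5G04960 was 0.10, AT4G11190 0.029 and AT2G16660 0.26. With 1 array left out in turn, values ran from -0.15 to 0.17 for DRT100, from -0.26 to 0.22 for AT5G04960 and from -0.34 to 0.26 for AT2G16660.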
